A study of Mus musculus with 14 samples.

Results

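The SLAM family receptors are 7 related cell surface proteins of blood cells, described here by their transcripts Slamf1, Cd48, Cd244, Ly9, Cd84, Slamf6 and Slamf7. They were found by name in the expression tables of haematopoietic stem cells (HSCs), which sustain every blood lineage from the bone marrow. Each of the 7 names matched 1 label with no copy suffix, out of 48714 gene labels shared by all libraries. The HSCs came from bone marrow of C57BL/6 mice, with no other allele or agent named in the labels, and were sorted by calcium level into [Ca2+]high cells (calcium-high) and [Ca2+]low cells (calcium-low). There were 7 libraries of each kind, numbered from 1 to 7, and every library held the RNA of 100 cells. The title of the series links cytoplasmic calcium to HSC dormancy, and the comparison here is of receptor transcripts between the calcium levels. The age and sex of the mice, and whether any SLAM receptor was part of the sort gate, are not given in the sources used here.

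SLAM receptors belong to the CD2 branch of the immunoglobulin superfamily. Most of them bind a copy of themselves on a neighbouring cell, while CD244 binds CD48. In mouse bone marrow they form the SLAM code: CD150 (the product of Slamf1) is displayed by long-term HSCs, whereas CD48 and CD244 are gained as stem cells become progenitors. Inside the cell, most members signal through immunoreceptor tyrosine-based switch motifs (ITSMs), which the small adaptor SAP and its relatives bind.

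The members differ in how many of these motifs they carry, and the motifs of Slamf1 and Cd244 are shown because these are the 2 members whose levels differed most between the groups, in opposite directions. The ITSM was searched in frame in the longest complete coding sequence of each gene as threonine, any residue, tyrosine, any 2 residues, then valine or isoleucine. In the lines below, read from the GENCODE M21 transcripts (GRCm38), capitals mark the tyrosine codon, and codons are counted from the start codon.
Slamf1, codons 286 to 291: actattTATgcccaagta
Slamf1, codons 333 to 338: acagttTATgccagtgtg
Cd244, codons 264 to 269: acaataTATgaatatgtc
Cd244, codons 323 to 328: accatgTACtctatgata
Cd244, codons 342 to 347: acagtaTATtcagtagtc
Cd244, codons 367 to 372: accgtgTACgaggaggtt
Slamf1 held 2 matches in 343 codons and Cd244 held 4 in 397 codons. Ly9, Cd84 and Slamf6 held 2 each and Slamf7 held 1. The single match of Cd48 lay at codons 105 to 110 of 240, and CD48 is a lipid-anchored protein with no cytoplasmic tail. Over all 21562 protein-coding genes searched, 7.95% held at least 1 match and 0.608% held 2 or more. A match is a description of the sequence and not a measured site.

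All 7 genes lie in a cluster on mouse chromosome 1 (RefSeq, GRCm38.p6). From the left these are Cd244 (listed by RefSeq as Cd244a, 171558718 to 171585316, plus strand), Ly9 (171588613 to 171607410, minus strand) and Slamf7 (171632403 to 171653037, minus strand). They are followed by Cd48 (171681245 to 171705258), Slamf1 (171767131 to 171801184), Cd84 (171839697 to 171890718) and Slamf6 (171917458 to 171948958), all on the plus strand. In GENCODE M21 the Cd244a model runs to 171609746 and so spans Ly9. The annotation behind the deposited values, and whether counting used strand, are not given in the sources used here, so reads of Cd244 and Ly9 could be shared to an unknown extent.

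Levels are in RPKM, reads scaled by gene model length and by the reads of the library, which can be compared between genes. Replicates 1 to 3 held 3.58 to 7.39 M reads in the listed genes, and replicates 4 to 7 held 8.28 to 10.3 M, recovered from the steps between RPKM values. For a 1 kb gene with a value of 0, the upper limit by counting error was 0.0808 to 0.210 RPKM (3 reads). Of 9921 genes tested, 48.8% differed in level between replicates 1 to 3 and replicates 4 to 7 (limma adjusted p under 0.05). Reads of 4 Y-linked genes were at 1298 to 1638 in replicates 1 and 2 of both groups, as in male cells. They were at 0 to 4 in the other libraries, as in female cells. Replicates 1 to 3 thus held libraries of both sexes, and the part of sex in the results was not tested. Calcium-low replicate 3 stood apart: its 7 neutrophil markers summed to 754 RPKM, against at most 77.3 RPKM in the calcium-high and 27.7 RPKM in the other calcium-low libraries. HSC markers were present in every library, such as Kit, the stem cell factor receptor, whose RPKM was 67.2 ± 4.97 (SD, n = 7) at high and 67.5 ± 6.49 at low calcium. The labels do not say whether the libraries came from separate animals, so p-values measure only the spread between these samples.

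Cd84 was the most abundant member, with a mean of 3.87 RPKM over the 14 libraries, followed by Slamf1 at 2.80, Ly9 at 1.69, Cd48 at 1.29 and Cd244 at 0.951 RPKM. Slamf7 and Slamf6 were close to absent, at 0.0143 and 0.00389 RPKM. In calcium-high libraries Cd84 (4.12 ± 1.03 RPKM) and Slamf1 (3.57 ± 0.728 RPKM) were within 1 SD of each other and both lay above the rest. In calcium-low libraries Cd84 had the highest mean but the widest spread (3.63 ± 1.70 RPKM), so that Slamf1 was within 1 SD of it, and Slamf1 (2.03 ± 0.914 RPKM) lay within 1 SD of Ly9 (1.88 ± 0.422 RPKM), Cd48 (1.54 ± 0.622 RPKM) and Cd244 (1.39 ± 0.676 RPKM). Cd84 was the highest member in 6 of 7 calcium-high and 5 of 7 calcium-low libraries. Among all tested genes the mean of Cd84 stood near the middle, at percentile 47.5, and the others lower, that of Slamf1 at 32.6, that of Ly9 at 13.8 and that of Cd48 at 6.13.

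**Figure D1:**
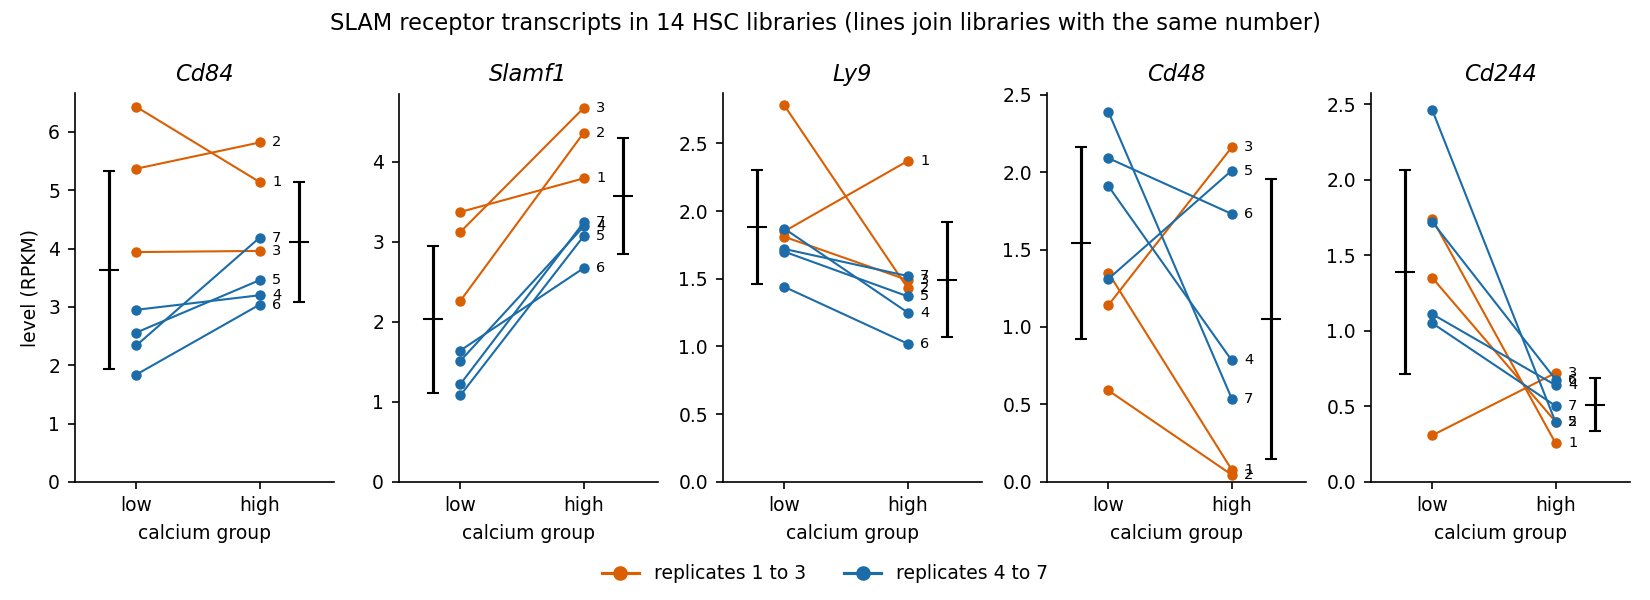
Levels of 5 SLAM receptor transcripts in RPKM (vertical axis, a separate scale for each gene, from 0) in calcium-low and calcium-high libraries. Each line joins 2 libraries with the same number, orange for replicates 1 to 3 and blue for replicates 4 to 7, and black bars give the mean and SD of 7 libraries. The Slamf1 line goes up in all 7 pairs, and the Cd244 line goes down in 6.

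Slamf1 was higher in the calcium-high library of all 7 pairs of equal number, as were 2.49% of tested genes. The calcium-high libraries ran from 2.67 to 4.67 RPKM with a median of 3.24 RPKM, and the calcium-low libraries from 1.08 to 3.37 RPKM with a median of 1.64 RPKM. The groups overlapped, because calcium-low replicates 1 and 3 (3.37 and 3.12 RPKM) reached the levels of calcium-high replicates 4 to 7 (2.67 to 3.24 RPKM). Within each set of libraries the groups did not overlap. In replicates 1 to 3 the calcium-high libraries were at 3.79, 4.36 and 4.67 RPKM and the calcium-low libraries at 3.37, 2.26 and 3.12 RPKM. In replicates 4 to 7 the calcium-high libraries were at 3.19, 3.07, 2.67 and 3.24 RPKM and the calcium-low libraries at 1.51, 1.08, 1.64 and 1.22 RPKM. Separation in both sets, with calcium-high above, was seen in 0.171% of the tested genes (17 of 9921).

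The mean of Slamf1 was 1.76-fold higher in calcium-high libraries, and on the log2(RPKM + 1) scale, which understates the change of low genes, the difference was 0.63. Without the replicate number as a block this did not pass (SE 0.169, limma adjusted p = 0.244 over 9921 genes), and with it Slamf1 rose (SE 0.109, limma adjusted p = 0.0337, higher in 7 of 7 pairs). What a shared number means is not given in the labels. With the block and no filter on low values Slamf1 did not pass (limma adjusted p = 0.126 over 18207 genes). Of the 4 members that passed the filter of a mean of 1 RPKM, Slamf1 was the 1 that passed with the block, and 0 passed without it. Without the block limma called 0 genes in all at an adjusted p under 0.05, with 6.74% of genes at an unadjusted p under 0.05. With the block it called 0.917% of genes in either direction and 0.484% as higher. The call with the block rested on most of the pairs: leaving out pair 2, 4, 5, 6 or 7 gave a limma adjusted p of 0.0812, 0.133, 0.0644, 0.130 or 0.149, while leaving out pair 1 or 3 gave 0.04995 or 0.00954, with differences of 0.58 to 0.72. With the library set as a term in place of the block, the limma adjusted p was 0.0139, where 0.514% of genes were called.

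The difference in Slamf1 was present in both sets of libraries, on different levels. Slamf1 was lower overall in replicates 4 to 7 than in replicates 1 to 3 by 0.55 on the log2(RPKM + 1) scale, with the group in the model (limma adjusted p = 0.00037). The calcium-high minus calcium-low difference was 0.44 in replicates 1 to 3 (limma adjusted p = 0.421) and 0.78 in replicates 4 to 7 (limma adjusted p = 0.00123, where 8.14% of genes were called). The difference between these was 0.34 and did not pass (limma adjusted p = 0.202, interaction term, with 0% of genes called). The median difference over all tested genes was itself -0.20 in replicates 1 to 3 and 0.11 in replicates 4 to 7. On the recovered reads, 99 to 323 reads of Slamf1 per library, limma-voom with library quality weights gave a log2 fold change of 1.08 without the block (adjusted p = 0.000907, where 7.06% of genes were called).

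Cd244, which encodes the receptor for CD48 (also named 2B4), lay in the opposite direction. The calcium-high libraries were at 0.254 to 0.721 RPKM with a median of 0.502 RPKM, and the calcium-low libraries at 0.308 to 2.46 RPKM with a median of 1.35 RPKM. A single low library made the groups overlap: calcium-low replicate 3 was at 0.308 RPKM, and the other 6 calcium-low libraries were at 1.05 to 2.46 RPKM, above every calcium-high library. In replicates 4 to 7 the groups did not overlap, where 3.1% of tested genes were separated with calcium-high below. The mean was 2.72-fold higher in calcium-low libraries, and Cd244 was lower in calcium-high libraries in 6 of 7 pairs, with pair 3 the exception. Among tested genes, 12.4% were lower in 6 or 7 pairs.

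With a mean of 0.951 RPKM, Cd244 was just under the filter of 1 RPKM, while Cd48 at 1.29 RPKM passed it. Cd244 was therefore read from the limma fit without a filter, over 18207 genes. There the difference was -0.62 on the log2(RPKM + 1) scale and did not pass (adjusted p = 0.284 without the block and 0.241 with it), with an unadjusted p of 0.00301, where 7.56% of genes were under 0.05. It passed without both libraries of replicate 3, a choice made after seeing the data (difference -0.78, limma adjusted p = 0.0207 without the block and 0.0765 with it) and not without calcium-low replicate 3 alone (-0.75, adjusted p = 0.059). On the recovered reads, 18 to 360 per library, limma-voom gave a log2 fold change of -1.40 (adjusted p = 0.034 without the block and 0.0869 with it). These fits of Cd244 also ran without a filter, where the share of genes called was not counted. Over the 9921 genes passing the filter, 1.2% were called without both libraries of replicate 3 and without the block. By limma-voom, 7.06% of those genes were called without the block and 8.46% with it.

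Cd48, the ligand of CD244 and the marker by which progenitors are told from HSCs, varied widely among calcium-high libraries. They ran from 0.0458 to 2.16 RPKM with a median of 0.784 RPKM, and the calcium-low libraries from 0.590 to 2.39 RPKM with a median of 1.35 RPKM. Calcium-high replicates 1 and 2 were nearly empty of it, with 2 reads and 1 read, whereas calcium-high replicates 3 and 5 were at 2.16 and 2.01 RPKM, among the highest of all libraries. The mean was 1.47-fold higher in calcium-low libraries. The difference of -0.40 on the log2(RPKM + 1) scale did not pass (SE 0.259, limma adjusted p = 0.876 without the block; 0.415 with it). Cd48 was lower in calcium-high libraries in 5 of 7 pairs and higher in pairs 3 and 5.

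Ly9 (CD229), a receptor that binds itself and is best known from lymphocytes, was at 1.02 to 2.37 RPKM in calcium-high and 1.44 to 2.78 RPKM in calcium-low libraries, with medians of 1.43 and 1.81 RPKM. It was lower in calcium-high libraries in 6 of 7 pairs, with pair 1 the exception. The difference of -0.21 on the log2(RPKM + 1) scale did not pass (SE 0.123, limma adjusted p = 0.836 without the block; 0.414 with it). It rested on 51 to 160 reads per library.

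Cd84 (SLAMF5), a self-binding receptor found on platelets, mast cells and lymphocytes, differed between the library sets, and its calcium difference did not pass. In replicates 1 to 3 the calcium-high libraries were at 5.14, 5.82 and 3.96 RPKM and the calcium-low libraries at 6.43, 5.37 and 3.94 RPKM. In replicates 4 to 7 the calcium-high libraries were at 3.20, 3.46, 3.04 and 4.19 RPKM and the calcium-low libraries at 2.95, 2.56, 1.84 and 2.34 RPKM. The groups thus interleaved in the first set and did not overlap in the second, where 13.8% of tested genes were separated with calcium-high above.

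The level of Cd84 was lower in replicates 4 to 7 by 0.64 on the log2(RPKM + 1) scale (limma adjusted p = 0.000673). The calcium-high minus calcium-low difference over all libraries was 0.20 and did not pass (SE 0.198, limma adjusted p = 0.99 without the block; 0.47 with it). It was -0.06 in replicates 1 to 3 and 0.39 in replicates 4 to 7 (limma adjusted p = 0.899 and 0.0685), and the difference between these did not pass (0.45, limma adjusted p = 0.19, interaction term).

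Slamf6 (Ly108) and Slamf7 (CRACC), receptors of lymphocytes and natural killer cells, were at the limit of detection. Slamf6 had 13 reads over all 14 libraries, in 3 of them, with at most 0.0255 RPKM. Slamf7 had 32 reads in 6 libraries, with at most 0.0862 RPKM. No fold is given for either.

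**Figure D2:**
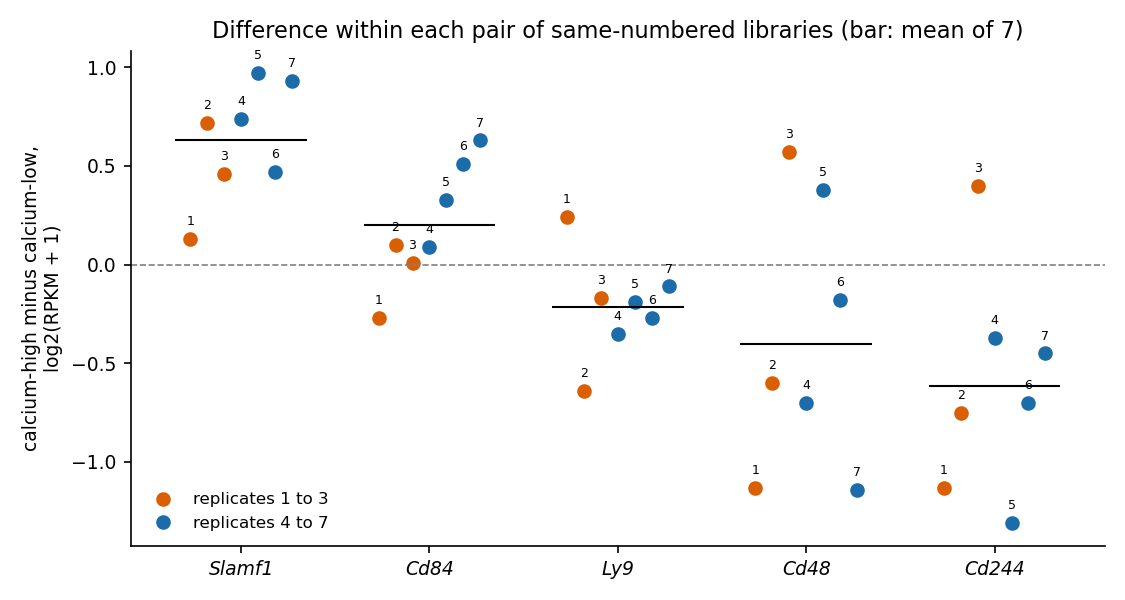
Difference between the calcium-high and the calcium-low library of each number (vertical axis, log2(RPKM + 1)), for 5 members. Points are pairs 1 to 7, orange for replicates 1 to 3 and blue for 4 to 7, and bars are the means of 7 pairs. All Slamf1 points lie above 0, from 0.13 to 0.97, and pair 3 is the 1 Cd244 point above 0, at 0.40.

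The summed level of the family differed between the groups by less than the spread of the libraries, and its make-up was as follows. The RPKM of the 7 members summed to 10.8 ± 1.51 in calcium-high and 10.5 ± 2.29 in calcium-low libraries (SD, n = 7). Slamf1 made up 33.0% ± 2.87 of that sum in calcium-high and 18.8% ± 6.14 in calcium-low libraries. Cd244 made up 4.90% ± 1.94 and 13.7% ± 7.56, and Cd48 10% ± 8.31 and 15.8% ± 8.28. In these bulk libraries, fewer cells with a transcript and less transcript per cell cannot be told apart.

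The ratios that mirror the SLAM code were compared library by library, as the log2 ratio of (RPKM + 1), with exact two-sided permutation tests over 3432 assignments of the libraries and Benjamini-Hochberg adjustment over the 3 ratios computed. Slamf1 to Cd244 was at 1.13 to 1.94 in calcium-high libraries (median 1.55) and at -0.74 to 1.66 in calcium-low libraries (median 0.25). Calcium-low replicate 3, at 1.66, was the 1 calcium-low library within the calcium-high range, and the next was at 0.67. The mean ratio was 1.59 ± 0.30 against 0.34 ± 0.73 (SD, n = 7), a difference of 1.25 (exact permutation p = 0.00291, adjusted p = 0.00874), higher in 7 of 7 pairs. The size depends on the pseudocount: with 0.1 RPKM in place of 1 the difference was 2.04, and with 5 RPKM it was 0.50, both on the same side of the threshold. With the signs of the 7 pair differences flipped in place of the groups, the exact p was 0.0156, the smallest that 7 pairs can give (adjusted p = 0.0469). The ratio was separated without overlap in replicates 1 to 3 (1.72 to 1.94 against 0.47 to 1.66) and in replicates 4 to 7 (1.13 to 1.55 against -0.74 to 0.25). How often the ratios of other gene pairs separate was not computed. Of single tested genes, 13.8% were separated with calcium-high above in replicates 4 to 7.

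Slamf1 to Cd48 was at 0.43 to 2.36 in calcium-high libraries (median 1.23) and at -0.61 to 1.03 in calcium-low libraries (median -0.15). The 2 highest ratios, 2.15 and 2.36 in calcium-high replicates 1 and 2, rested on 2 reads and 1 read of Cd48. Their size therefore depends strongly on the pseudocount. In plain levels, Slamf1 exceeded Cd48 in 7 of 7 calcium-high and 3 of 7 calcium-low libraries, and these 3 were replicates 1 to 3. The mean ratio was 1.27 ± 0.77 against 0.24 ± 0.69 (SD, n = 7), a difference of 1.03 (exact permutation p = 0.0245, adjusted p = 0.0367), higher in 6 of 7 pairs, with pair 3 the exception (0.84 against 0.95). With a pseudocount of 0.1 RPKM the difference was 1.91, and with 5 RPKM it was 0.41, both on the same side of the threshold. The adjusted p over the 3 ratios rose to between 0.0577 and 0.0734 (exact permutation) when any of calcium-high replicates 1, 2, 4 and 7 or calcium-low replicates 4 to 7 was left out. The ratio was separated without overlap in replicates 4 to 7 (0.43 to 1.46 against -0.61 to -0.15) and overlapped in replicates 1 to 3. In replicates 4 to 7 the exact permutation p was 0.0286, the smallest that 4 against 4 can give. Here too, the share of other gene pairs separated in this way was not computed.

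Cd48 to Cd244, the ratio of a ligand to its receptor, was at 0.32 ± 0.58 in calcium-high and 0.10 ± 0.57 in calcium-low libraries (SD, n = 7). The difference of 0.21 was smaller than the spread (exact permutation p = 0.487, adjusted p = 0.487). The first 2 ratios share Slamf1, which was already known to differ in these data, so they are not independent of each other or of its difference.

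**Figure D3:**
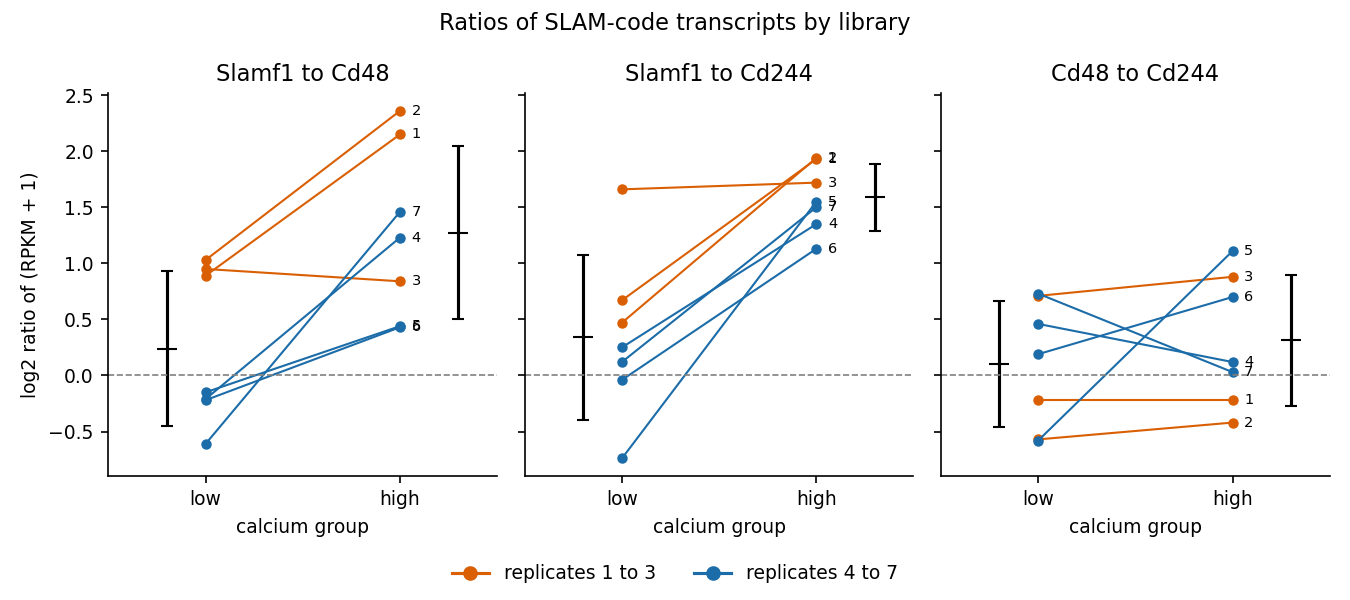
Log2 ratio of (RPKM + 1) for 3 pairs of SLAM-code transcripts (vertical axis) in calcium-low and calcium-high libraries. Lines join libraries with the same number, orange for replicates 1 to 3 and blue for 4 to 7, and black bars give mean and SD of 7. Slamf1 to Cd244 goes up in all 7 pairs, Slamf1 to Cd48 in 6 of 7, and Cd48 to Cd244 shows no common direction.

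Across the 14 libraries the members varied in different ways. On the log2(RPKM + 1) scale, Slamf1 and Cd84 had a Pearson r of 0.71 (Spearman coefficient 0.76), which was -0.08 once the mean of each group within each library set was taken away. Slamf1 and Cd244 had an r of -0.69 (Spearman coefficient -0.53; -0.12 within groups and sets), and Cd48 and Cd84 an r of -0.66 (Spearman coefficient -0.64; -0.50 within groups and sets). These points share the calcium groups and the library sets, and the values are descriptions.

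The genes around the members on chromosome 1 were read in the same fits. RefSeq lists 28 other genes within 200 kb of a member, of which 22 were matched in the files, 9 reached a mean of 1 RPKM and 0 were called with or without the block. Of those 9, 4 had a difference above 0 and 5 below, with a median of -0.01 against -0.03 for all tested genes. The neighbours with the smallest p without the block were Tstd1, Arhgap30, Nectin4 and F11r. Arhgap30, a GTPase-activating protein, was at 8.08 ± 1.72 against 12.4 ± 3.14 RPKM (SD, n = 7; limma adjusted p = 0.396 without the block and 0.0714 with it). F11r, the junctional adhesion molecule JAM-A, was at 6.71 ± 1.45 against 5.27 ± 1.22 RPKM (limma adjusted p = 0.769 without the block and 0.331 with it). Tstd1 (0.385 ± 0.187 against 0.141 ± 0.112 RPKM) and Nectin4 (0.783 ± 0.213 against 0.556 ± 0.0665 RPKM) were under the filter.

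**Figure D4:**
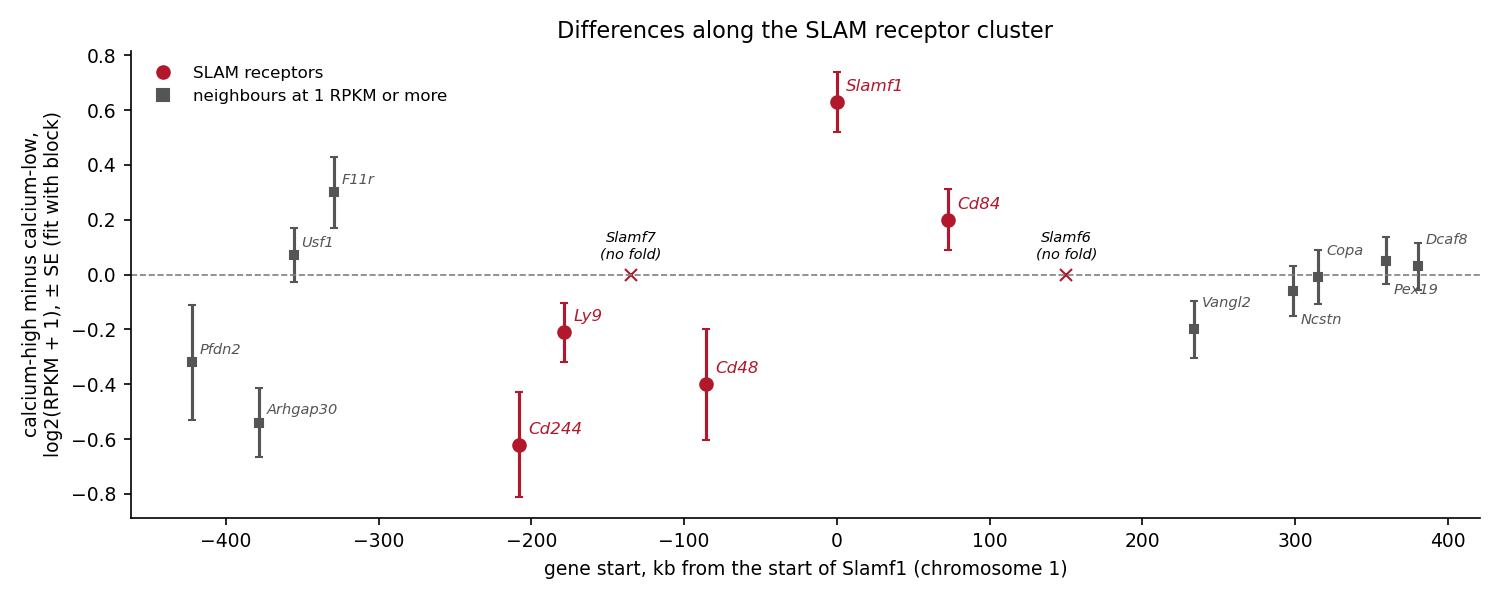
Calcium-high minus calcium-low difference (vertical axis, log2(RPKM + 1), with the SE of the limma fit with the replicate block) by the distance of each gene's start from that of Slamf1 in kb (horizontal axis). Red circles are SLAM receptors, crosses the 2 members for which no fold is given, and grey squares the 9 tested neighbours. Slamf1 (0.63) and Cd84 (0.20) lie above 0, and Cd244 (-0.62), Ly9 (-0.21) and Cd48 (-0.40), all on the left of Slamf1, lie below.

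The adaptors that bind the switch motifs shown above were nearly undetected in these HSCs. Sh2d1a, which encodes SAP itself, had 5 reads over the 14 libraries, in 4 of them. Sh2d1b1 (EAT-2) had 16 reads in 4 libraries, and Sh2d1b2 (its neighbouring paralogue) was above 0 in 1 library, at 0.161 RPKM. The other enzymes known to act behind SLAM receptors were expressed: of 23 genes, 20 were tested and 0 were called with or without the block. The median of their differences was -0.01, against -0.03 over all tested genes, with 9 above 0 and 11 below.

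Among those partners, none of the phosphatases that bind the motifs passed. Inpp5d (SHIP-1) was at 13.8 ± 2.62 RPKM at high and 16.1 ± 1.72 RPKM at low calcium, lower in 7 of 7 pairs (SD, n = 7; limma adjusted p = 0.844 without the block and 0.288 with it). Ptpn6 (SHP-1) was at 23.8 ± 4.95 against 22.9 ± 2.83 RPKM and Ptpn11 (SHP-2) at 8.19 ± 0.595 against 8.40 ± 1.36 RPKM. Fyn, the kinase that SAP recruits, was at 4.57 ± 0.585 against 5.10 ± 0.688 RPKM. The smallest p in the list belonged to Src, a tyrosine kinase, at 1.5 ± 0.420 against 0.940 ± 0.259 RPKM, higher in 7 of 7 pairs (limma adjusted p = 0.565 without the block and 0.153 with it). Next came Pik3r4, a subunit of the class III lipid kinase complex (5.60 ± 0.763 against 4.71 ± 0.426 RPKM), and the adaptor Grb2 (14 ± 2.39 against 16.7 ± 2.18 RPKM).

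**Figure D5:**
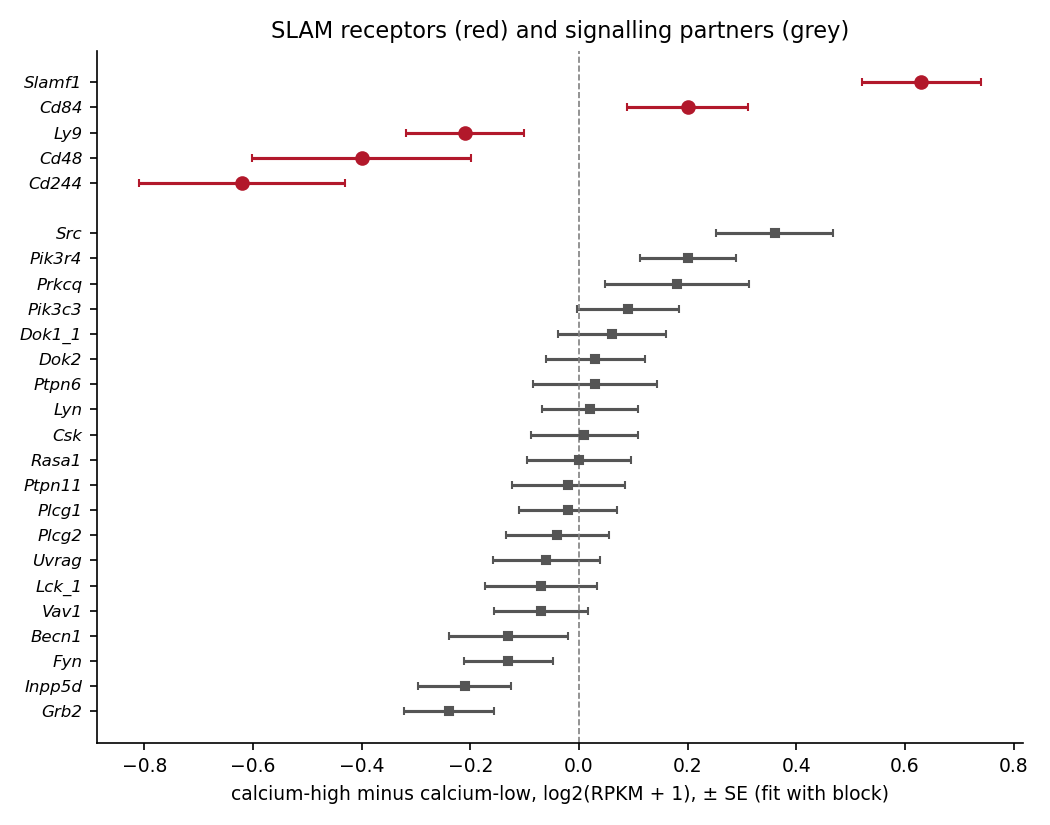
Calcium-high minus calcium-low difference with the SE of the limma fit with the replicate block (horizontal axis, log2(RPKM + 1)) for 5 SLAM receptors in red and 20 tested signalling partners in grey. The partners lie between -0.24 (Grb2) and 0.36 (Src), and Slamf1 (0.63), Cd48 (-0.40) and Cd244 (-0.62) lie outside that range, while Ly9 (-0.21) and Cd84 (0.20) lie within it.

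SLAM receptors are also made by lymphocytes, natural killer cells and progenitors, so markers of these cells were measured beside them. Of 7 T cell markers, Cd3e and Cd3g were at 0 in all libraries and the sum of the list was 1.40 to 2.23 RPKM at high and 1.39 to 2.47 RPKM at low calcium. Of 6 B cell markers, Ms4a1 was at 0 in all libraries, and the sum was 2.91 to 5.97 against 3.25 to 6.27 RPKM. Of 7 natural killer cell markers, Ncr1 and Gzma were at 0 in all libraries, and the sum was 4.50 to 18.7 against 11.6 to 33.2 RPKM, nearly all of it Nkg7 (9.74 ± 4.88 against 19.7 ± 7.16 RPKM). Nkg7 was lower in 7 of 7 pairs (limma adjusted p = 0.293 without the block and 0.0514 with it). Klrb1c, under the filter of 1 RPKM, was higher in 7 of 7 (0.906 ± 0.435 against 0.143 ± 0.170 RPKM). In the fits without a filter Klrb1c did not pass (limma adjusted p = 0.113 without the block and 0.126 with it). Among tested genes, 12.4% were lower in 6 or 7 pairs and 2.49% were higher in 7 of 7. Of the 5 mast cell and basophil markers, Mcpt4 was at 0 in all libraries, and the sum was 0.0383 to 1.45 against 0.265 to 1.65 RPKM.

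The sums of myeloid, erythroid and platelet markers overlapped between the groups as well. The 7 monocyte and macrophage markers summed to 43.3 to 185 in calcium-high and 55.2 to 82.8 RPKM in calcium-low libraries, and the 5 dendritic cell markers to 5.17 to 43.3 against 5.97 to 31.8 RPKM. The 6 erythroid markers summed to 0.513 to 70.2 against 1.13 to 136 RPKM, with 136 RPKM in calcium-low replicate 3. The 7 megakaryocyte and platelet markers summed to 15.7 to 33.3 against 16.6 to 34.8 RPKM.

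Genes that mark multipotent and lymphoid-primed progenitors lay in the direction of Cd244 and opposite to Slamf1. The 6 genes of that list summed to 16.1 to 41.2 RPKM in calcium-high and 30.5 to 80.9 RPKM in calcium-low libraries, with 30.5 RPKM in calcium-low replicate 3. All 5 tested members had a difference below 0, and Cd34 and Flt3 fell with the block. Of the 14 genes of the HSC list, 9 had a difference above 0 and 5 below, with a median of 0.27. With the block 3 rose (Procr, Fgd5 and Vwf) and 2 fell, while 0 passed without it. The 2 that fell were Cd34 and Flt3, which are also genes of the progenitor list, where all tested genes were lower. Over all tested genes, 0.917% were called with the block, and 4191 had a difference above 0 and 5730 below. The 14 genes of the HSC list, Cd34 and Flt3 included, summed to 216 to 412 in calcium-high and 211 to 328 RPKM in calcium-low libraries. The part of the progenitor genes in the results for Slamf1 and Cd244 was not tested.

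The genes whose levels over the 14 libraries were most like those of each member were found by Pearson r on log2(RPKM + 1) among all tested genes. For Slamf1 they were Plxnc1 (r = 0.923), a semaphorin receptor, Rarb (0.889), a retinoic acid receptor, Sat1 (0.883), Tgfbr3 (0.869) and Adam4 (0.866). Within groups and library sets these r were 0.13 to 0.46. The mean RPKM of Plxnc1 was 25 ± 1.35 at high against 19.2 ± 3.65 at low calcium (SD, n = 7), and that of Rarb was 1.46 ± 0.534 against 0.636 ± 0.369.

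The other members had different partners. For Cd48 they were Emilin2 (r = 0.910), Egln3 (0.908), Tgfb1 (0.903) and Itga2b (0.892), the integrin CD41, and within groups and library sets these r were still 0.87 to 0.91. For Cd84 they were Itga6 (0.961), Rnf14 (0.960), Dnajb14 (0.958), Bmpr2 (0.956) and Nfat5 (0.955), with 0.81 to 0.92 within groups and sets. For Ly9 the highest were lower: Krr1 (0.782), Fgl2 (0.747), Gsta4 (0.730), 2010315B03Rik_1 (0.718) and Abcb1b (0.710). The 14 libraries share depth, library set and calcium group, so these r are descriptions.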

How the data were processed

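The 14 deposited files hold 1 RPKM value per gene and library, computed by the authors; the header names no unit, and RPKM was read from the values. Per the submitters' processing notes, edgeR and the builds GRCm38 and mm10 were used, with no role given; the aligner, counter and annotation are not given in the sources used here. Of 48737 labels per file, 23 that were serial numbers or repeats were left out. Values were whole multiples of a step in each gene, and all 9921 genes passing the filter (mean RPKM of at least 1) came out as whole reads within 0.02 reads. Differences were fitted to log2(RPKM + 1) with limma 3.58.1 in R 4.3.3, using its trend option, as calcium-high minus calcium-low. Benjamini-Hochberg adjustment ran over all tested genes, with a threshold of 0.05. The fit was tried on simulated data with independent libraries, which does not cover spread shared by equal numbers or by library sets. Libraries with the same number deviated together from their group means (each of the 7 pairs had r between 0.384 and 0.715, over the minimum of 0.1). Those deviations include the difference between library sets, and libraries of unlike number were not compared. The r therefore cannot show that a shared number pairs libraries. Fits with the replicate number as a block are given beside those without it. Replicates 1 to 3 and 4 to 7 are called library sets by their numbers; the labels name no batch. Coordinates came from RefSeq (GRCm38.p6). Ratios, figures and lists used Python 3.11.15 with scipy 1.17.1. The text names all 7 members, the 4 signalling partners and 4 neighbours with the smallest p, and the 5 genes most like each of the 4 members that passed the filter, less 1 gene for Cd48 that is not reported here; the adaptors, the relatives, Fyn, Ptpn6, Ptpn11 and single markers were added after their values were seen. The members and lists were chosen with earlier results of these data known. Alternatives were other pseudocounts, filters, scaling, limma-voom, library sets and left-out libraries.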

Additional observations from a re-analysis of the deposited data

Results flagged for a closer look

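A gap of 1 library from the rest of its group, by Dixon's test, was found for 4 of 20 groups of 7 tested. Chance flags about 1 in 20 groups of normally spread values. Slamf6 and Slamf7 were at 0 in 11 and 8 of the 14 libraries, so that rate does not apply to their flags. Ly9 in calcium-low replicate 2 was at 2.78 RPKM, above the other calcium-low libraries. Slamf6 in calcium-high replicate 1 was at 0.0147 RPKM, from 2 reads, with the other calcium-high libraries at 0. Slamf7 in calcium-high replicate 5 was at 0.0652 RPKM from 13 reads, and in calcium-low replicate 1 at 0.0862 RPKM from 8 reads.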

How the results depend on the processing

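Without the block, 0 genes were called, and the count was 4 with median-of-ratios scaling, 1 without a filter, 4 with a filter at 2 RPKM, 51 with the library set as a term, 808 in replicates 4 to 7 alone, 700 by limma-voom on recovered reads, and 0 to 101 when 1 library was left out (101 without calcium-high replicate 3, 20 without calcium-low replicate 3). With the replicate block it was 91, and 0 to 302 when 1 pair was left out (302 without pair 3, 12 without pair 5, 8 without pair 1, 3 or fewer without each other pair). Chosen after seeing the data were the block with a pseudocount of 0.1 (92), with median-of-ratios scaling (328), with limma-voom (839), in replicates 4 to 7 (656) and in replicates 1 to 3 (1), and leaving out both libraries of replicate 3 without the block (119). In replicates 1 to 3 alone the ratio of Slamf1 to Cd48 differed by 0.83 and that of Slamf1 to Cd244 by 0.93, and neither passed, since 3 against 3 cannot go below p = 0.1 in an exact permutation test. With 1 library left out these ratios differed by 0.85 to 1.17 and by 1.07 to 1.47 and without both libraries of replicate 3 by 1.22 and 1.45. In the replicate block (sign flips of the pairs), the exact p was 0.0312 for Slamf1 to Cd48 and 0.609 for Cd48 to Cd244, on the same side of the threshold as without it. Slamf1, Cd48, Cd244 and Ly9 kept their direction in all 38 alternatives, with ranges of 0.29 to 1.08, -1.11 to -0.12, -1.43 to -0.21 and -0.48 to -0.08. Over all libraries, the block, the library set term and the filters cannot change these differences. Many other alternatives only leave out part of the same libraries. The ranges also mix the scales of different pseudocounts and of limma-voom. Cd84 was at -0.06 in replicates 1 to 3, with or without the block. Cd84 passed with the block in limma-voom alone (limma adjusted p = 0.047, where 8.46% of genes were called). The planned count test of edgeR was not run, because the deposited values are RPKM. Reads limit Slamf6, Slamf7 and the SAP adaptors, and Cd48 in calcium-high replicates 1 and 2.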

Other observations

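Relatives of the SLAM receptors outside the 7 members were scarce in these HSCs. Slamf8, a family member of myeloid cells, was above 0 in all 14 libraries, with a mean RPKM of 0.211 ± 0.0766 at high and 0.174 ± 0.0437 at low calcium (SD, n = 7), on 188 reads in all. Slamf9 had 8 reads in 5 libraries. Cd2, which encodes the other receptor for CD48, was listed at 0 in all libraries under its label Cd2_1. Cd5 and Cd6, scavenger receptors of T cells, averaged 0.0744 and 0.00924 RPKM.

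Pair 3 was an exception in both Cd48 and Cd244, and pair 1 in both Ly9 and Cd84. Calcium-high replicate 3 was above calcium-low replicate 3 in Cd48 (2.16 against 1.14 RPKM) and in Cd244 (0.721 against 0.308 RPKM), while Slamf1 kept the common direction (4.67 against 3.12 RPKM). Both libraries of pair 3 were also high in Car1, an erythroid carbonic anhydrase (62.5 and 120 RPKM). The medians of the calcium-high and calcium-low groups that include them were 7.51 and 0.202 RPKM. The group means, 15.0 and 17.5 RPKM, were raised by these 2 libraries.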
